A study of Mus musculus with 6 samples.

Results

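Ska2 and 9 genes that lie near it on mouse chromosome 11 (Prr11, Trim37, Gdpd1, Ypel2, Smg8, Dhx40, Cltc, Ppm1e and Rad51c) were described in the hippocampus of miR-301a-/- mice and wild-type mice. Ska2 is the host gene of Mir301, the gene for the microRNA miR-301a. The 10 genes were taken by name from a table of 54393 genes, by a rule that uses the gene names and no measured value. Messenger RNA was profiled by sequencing of poly(A)-selected, randomly primed libraries. Both groups were untreated C57BL/6 mice of 6 to 8 weeks, and both had 3 libraries: miR-301a-/- 1-1, 2-2 and 3-1, and wild type 1-1, 2-1 and 2-2, named by the codes in their titles. Values are given in this order of libraries throughout. The labels give the genotype as miR-301a-/- without the allele, the bases removed or the breeding, and do not state sex. Nor do they say whether the libraries stem from different animals, so the p-values measure the spread of these libraries only, and that spread may be technical.

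Many microRNA genes lie inside introns of other genes and are cut out of the host gene's primary transcript. The stem-loop is trimmed to a mature strand of which the seed, near its 5′ end, pairs with messenger RNAs. Removing a microRNA gene therefore also alters the DNA of its host gene, and the host and its neighbours are the genes whose DNA lies closest to the targeted sequence. SKA2 protein is a subunit of the SKA complex, which holds kinetochores on spindle microtubules in dividing cells.

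Mir301 (ENSMUSG00000065589.1) lies at chr11:87113004-87113089 on the plus strand of GRCm38, in intron 1 of Ska2-201, the 4-exon coding transcript of Ska2 in GENCODE M21. That intron spans chr11:87109305-87116103. The hairpin is shown because it is the targeted element, with the mature miR-301a-3p in capitals (RefSeq, GRCm38.p6).
Mir301 hairpin: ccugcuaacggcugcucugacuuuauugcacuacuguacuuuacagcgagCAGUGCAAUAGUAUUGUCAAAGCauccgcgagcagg

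The mature miR-301a-3p shares its seed with 6 other mouse microRNAs of the same RefSeq table, namely 3 of the miR-130 group and miR-721, miR-6341 and miR-6389. That source held no entry for miR-301b-3p, so its seed was not compared and the list may be incomplete. The miR-130 group is shown beside miR-301a-3p, with seed bases 2 to 8 in capitals, because these relatives lie away from the Ska2 locus. Mir130a lies on chromosome 2, Mir130b on chromosome 16 and Mir130c on chromosome 9.
mmu-miR-301a-3p: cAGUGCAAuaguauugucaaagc
mmu-miR-130a-3p: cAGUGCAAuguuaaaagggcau
mmu-miR-130b-3p: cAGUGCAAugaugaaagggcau
mmu-miR-130c: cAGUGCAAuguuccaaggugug

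Mir301 was listed at 0 in all 6 libraries, which leaves the genotype labels unchecked by it. Poly(A) selection is not made to keep microRNAs or the spliced-out intron. Whether Ska2 reads crossed the targeted intron could not be seen in a table with 1 value per gene.

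The markers of hippocampal cell types were present in each library. The neuronal markers Rbfox3, Snap25 and Syt1 summed to 1232 to 1516 in miR-301a-/- libraries and 1331 to 1399 in wild-type libraries. The CA1 markers Wfs1 and Mpped1 summed to 96.8 to 130 in miR-301a-/- libraries and 109 to 151 in wild-type libraries, and no marker list of the 12 cell types examined was at 0. Values are FPKM-like, that is, scaled by gene length and library depth, so they can be set side by side between genes. Depth was not given, and was estimated from the smallest values, in units of 1e+06 reads, at 26.9, 16.9 and 19.7 in miR-301a-/- libraries and 27.8, 20.2 and 19.6 in wild-type libraries. In bulk tissue, fewer cells of a type and less RNA per cell cannot be told apart.

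None of the 9 locus genes that could be tested passed the test of genotype. A limma fit of log2(value + 1) covered the 14708 genes with a value of at least 1 in at least 3 libraries, and genes are referred to as called where the Benjamini-Hochberg adjusted p was under 0.05. Of the 9 genes 0 were called, against 0.109% of all genes tested, and their adjusted p-values lay between 0.874 and 0.987. One gene, Cltc, had an unadjusted p under 0.05, a level that 5.72% of all genes tested passed. Cltc was also the only one of the 9 whose miR-301a-/- and wild-type values did not overlap, which was the case for 11.4% of all genes tested. The fold changes were positive for 7 genes and negative for 2, with a median log2 fold change of 0.05, against −0.0038 over all genes tested. The median size of the log2 fold change, sign aside, was 0.06 for the 9 genes and 0.09 for all genes tested. In the authors' deposited table the p-value and the adjusted p-value were 1 for all 10 genes, although their log2 fold changes there ranged from −0.276 to 0.222. The test behind these p-values is not named, so nothing is drawn from them.

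**Figure D1:**
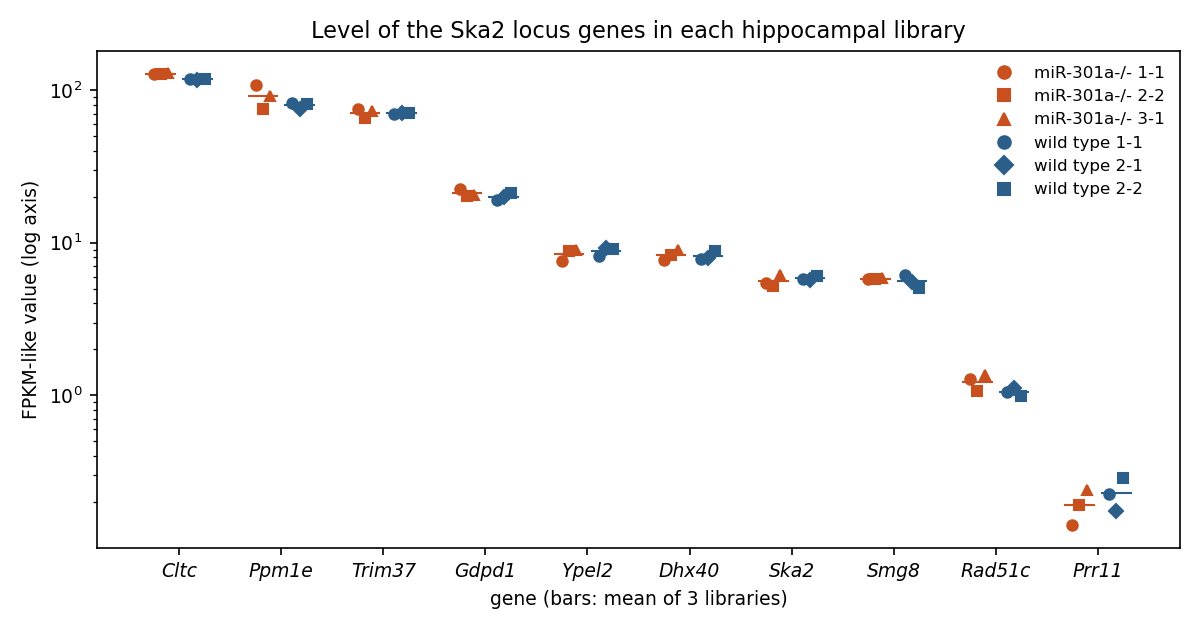
FPKM-like value (log axis) of the 10 genes, in order of level, in each of the 3 miR-301a-/- libraries (orange) and 3 wild-type libraries (blue); bars are group means. The levels run from Cltc, at 117 or more in each library, to Prr11, at 0.288 or less in each library, and the 2 genotypes lie apart for Cltc alone.

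The levels of the 10 genes covered a 582-fold range of means over the 6 libraries. The order was Cltc, Ppm1e, Trim37, Gdpd1, Ypel2, Dhx40, Ska2, Smg8, Rad51c and Prr11. Cltc, Ppm1e and Trim37 were above 95.5%, 93.1% and 91.4% of all tested genes, Ska2 was above 33.7% and Rad51c above 3.21%. The ranges of neighbours in this order over the 6 libraries did not overlap, except for 2 pairs. Ypel2 was above Dhx40 in 4 of 6 libraries, at a ratio of means of 1.05. Ska2 was above Smg8 in 3 of 6 libraries, at a ratio of 1.01.

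Ska2 (ENSMUSG00000020492.11, chr11:87109234-87124635, plus strand) had values of 5.44, 5.17 and 6.14 in miR-301a-/- libraries, against 5.80, 5.70 and 6.08 in wild-type libraries. Its highest and its lowest value were both in miR-301a-/- libraries, so the wild-type range lay inside the miR-301a-/- range. The means were 5.59 ± 0.503 in miR-301a-/- and 5.86 ± 0.195 in wild type (SD, n = 3 each). The limma log2 fold change was −0.06 (SE 0.09, adjusted p = 0.955). It was −0.02 without miR-301a-/- 2-2 and −0.12 without miR-301a-/- 3-1. Its 95% interval allowed a change between −17.8% and 11.8% on the value + 1 scale, so a smaller change of the host gene's transcript was not detectable with these libraries. The two-sided exact permutation test gave p = 0.5, where 0.1 is the smallest that 3 against 3 libraries can give. The estimated number of reads behind each value was 287 to 480 in miR-301a-/- and 377 to 527 in wild type.

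Other annotated sequences resemble or overlap Ska2. The processed pseudogene Gm12103 matched its transcript at 91.5% identity over 366 nt, and was listed at 0.330, 2.36 and 0.959 in miR-301a-/- libraries and at 0.323, 0 and 0 in wild-type libraries. The pseudogenes Ska2l-ps (97.2% over 360 nt) and Gm19572 (89.6% over 338 nt) were listed at 0 in all 6 libraries. The antisense gene Gm11491 overlaps exons of Ska2 and was listed at 0 in all 3 miR-301a-/- libraries, and at 0.0834, 0 and 0.186 in wild-type libraries. How reads that match several genes were placed, and whether strand was used, the sources used here do not say, so the Ska2 value is uncertain to that extent.

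Prr11 (ENSMUSG00000020493.8, chr11:87089153-87108708, minus strand) is transcribed away from Ska2 and, in human cells, is known as a cell-cycle gene paired with SKA2. The values of Prr11 were 0.141, 0.192 and 0.240 in miR-301a-/- libraries, against 0.225, 0.175 and 0.288 in wild-type libraries. The ranges overlapped, and the means were 0.191 ± 0.0493 in miR-301a-/- and 0.230 ± 0.0566 in wild type (SD, n = 3 each). Only an estimated 12.4 to 18.0 reads in miR-301a-/- and 13.5 to 23.9 reads in wild type lay behind each value. Stretches of its transcript of 200 to 220 nt also matched other genes, at up to 89.0% identity (Cep89, 210 nt). Prr11 did not reach the level needed for the test and got no p-value. Its relative spread over the 6 libraries, a coefficient of variation of 24.7%, was the widest of the 10 genes.

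The annotated starts of Ska2 and Prr11 lie head to head, 526 bp apart in GENCODE M21 and 547 bp apart in RefSeq. The transcripts of the 2 genes were nevertheless at very different levels. The Ska2 value was 38.5, 26.9 and 25.6 times the Prr11 value in miR-301a-/- libraries and 25.8, 32.5 and 21.1 times in wild-type libraries. The ratios overlapped between the genotypes. The 2 promoter windows, from 250 bases before to 50 bases after each RefSeq start, are shown because they hold the sequence between this pair of genes apart from 46 bp in the middle. Capitals mark the CCAAT box, the core of the sequence bound by the factor NF-Y, searched as CCAAT and as ATTGG, its reverse complement. The Ska2 window lies at chr11:87109011-87109310 (plus strand) and the Prr11 window at chr11:87108665-87108964 (minus strand), both of GRCm38.p6.
Ska2 promoter: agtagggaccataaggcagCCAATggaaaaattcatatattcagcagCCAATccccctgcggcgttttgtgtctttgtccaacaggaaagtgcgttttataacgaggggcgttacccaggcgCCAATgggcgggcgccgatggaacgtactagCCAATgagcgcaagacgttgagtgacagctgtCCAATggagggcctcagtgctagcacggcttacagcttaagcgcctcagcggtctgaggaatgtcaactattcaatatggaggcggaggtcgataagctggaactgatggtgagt
Prr11 promoter: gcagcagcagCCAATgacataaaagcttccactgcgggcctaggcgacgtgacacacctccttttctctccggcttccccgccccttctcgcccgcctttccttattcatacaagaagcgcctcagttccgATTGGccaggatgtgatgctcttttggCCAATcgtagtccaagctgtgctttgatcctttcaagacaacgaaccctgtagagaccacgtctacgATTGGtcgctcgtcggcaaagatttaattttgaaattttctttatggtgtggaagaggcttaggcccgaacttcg

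The Ska2 window held 5 CCAAT boxes, all reading CCAAT on the Ska2 strand. The Prr11 window held 4, of which 2 read CCAAT and 2 read ATTGG on the Prr11 strand. Of 32851 mouse promoter windows of the same length, 37.4% held at least 1 such box, 1.06% held at least 4 and 0.271% held at least 5. The windows of Ypel2, Smg8 and Trim37 held 1 box each, and those of Cltc, Dhx40, Gdpd1, Ppm1e and Rad51c held none. These are matches of letters in a window, not measured binding.

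**Figure D2:**
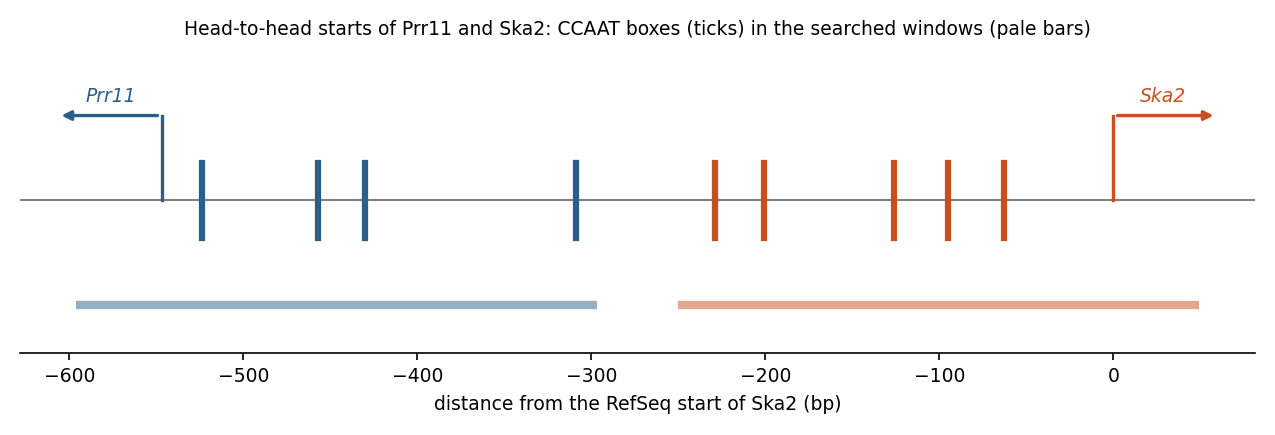
Distance in bp from the RefSeq start of Ska2 (axis) of the start of Prr11, of the 9 CCAAT boxes (ticks, blue in the Prr11 window and orange in the Ska2 window) and of the 2 windows searched (pale bars). The starts lie 547 bp apart and point away from each other, and all 9 boxes lie between them.

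Cltc (ENSMUSG00000047126.17, chr11:86694351-86757565, minus strand) encodes the clathrin heavy chain, which forms the three-legged frame of the coats that pull synaptic vesicle membrane back from the nerve terminal surface. It had values of 128, 126 and 128 in miR-301a-/- libraries, against 118, 117 and 118 in wild-type libraries. All 3 miR-301a-/- values were above all 3 wild-type values, and libraries of 1 genotype were close together. The means were 127 ± 1.09 in miR-301a-/- and 118 ± 0.505 in wild type (SD, n = 3 each). The limma log2 fold change was 0.12 (SE 0.05, adjusted p = 0.874), and its 95% interval was 0.0036 to 0.23. The two-sided exact permutation test gave p = 0.1, the smallest it can give here. Cltc therefore did not pass the test over all genes. Its unadjusted limma p of 0.0447 was above 0.05 when any 1 library was left out (0.0657 to 0.129), and was 0.0894 with values scaled to the library sum. The summed choroid plexus markers Ttr, Kl and Aqp1 did not overlap either, at 17.6, 14.7 and 7.66 in miR-301a-/- libraries and 6.12, 4.59 and 7.07 in wild-type libraries. Of these markers Ttr alone was apart, at 12.2, 10.7 and 2.74 in miR-301a-/- libraries and 1.68, 1.41 and 2.57 in wild-type libraries. Among the markers of the other cell types, which had 2 or 3 markers each, 3 were apart. Lack of overlap was the case for 11.4% of all genes tested. Whether the make-up of the tissue differed between the genotypes was not tested. The microglia marker P2ry12 had 26.6 to 32.5 in miR-301a-/- and 20.6 to 26.4 in wild type, the CA1 marker Mpped1 had 57.0 to 75.0 in miR-301a-/- and 78.1 to 88.3 in wild type, and the astrocyte marker Gfap had 125 to 153 in miR-301a-/- and 155 to 177 in wild type. The summed CA1, astrocyte and microglia markers overlapped between the genotypes. The part of these markers in the Cltc values was not tested.

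No other gene of clathrin coats passed the test either. All 27 genes of the list of coat and endocytosis genes were tested, and 0 were called, with 19 higher and 8 lower in miR-301a-/- and a median log2 fold change of 0.02. The most abundant were Hspa8, the chaperone that strips coats (774 ± 97.5 in miR-301a-/- and 757 ± 8.72 in wild type), the membrane-cutting GTPase gene Dnm1 (540 ± 35.1 in miR-301a-/- and 536 ± 33.2 in wild type) and the adaptor subunit gene Ap2m1 (529 ± 19.8 in miR-301a-/- and 526 ± 16.4 in wild type). The light chain genes, whose products sit on the heavy chain, had negative fold changes. Clta had 188 ± 7.72 in miR-301a-/- and 198 ± 11.1 in wild type, a log2 fold change of −0.08. Cltb had 119 ± 1.94 in miR-301a-/- and 125 ± 4.43 in wild type, also −0.08, without overlap between the genotypes. Dnajc6, which encodes the uncoating protein auxilin, had 110 ± 7.83 in miR-301a-/- and 94.8 ± 5.37 in wild type, a log2 fold change of 0.21 (limma adjusted p = 0.832). Cltc, Cltb and Dnajc6 were the 3 genes of the 27 without overlap, against 11.4% of all genes tested. Clta, Cltb and Dnajc6 were picked out after their values were seen.

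Ppm1e (ENSMUSG00000046442.4, chr11:87226906-87359023, minus strand) encodes a brain-enriched phosphatase that acts on CaM kinases and PAK kinases. It had values of 107, 74.9 and 91.0 in miR-301a-/- libraries, against 82.0, 75.0 and 80.3 in wild-type libraries. The highest and the lowest value were both in miR-301a-/- libraries. The means were 90.9 ± 16.0 in miR-301a-/- and 79.1 ± 3.62 in wild type (SD, n = 3 each), and the log2 fold change of 0.19 was the largest of the 9 genes (SE 0.12, limma adjusted p = 0.893). It was 0.06 without miR-301a-/- 1-1 and 0.32 without miR-301a-/- 2-2 (limma adjusted p = 0.852). In the fit without miR-301a-/- 2-2, Ppm1e was the 1 gene of the 9 with an unadjusted p under 0.05. The CA3 pyramidal neuron markers Cpne4 and Chgb summed to 311, 189 and 252 in miR-301a-/- libraries and to 233, 186 and 235 in wild-type libraries, so miR-301a-/- 1-1 was highest for them too. This was not particular to CA3. The same library was highest for the neuron, astrocyte, microglia, choroid plexus, ependyma and erythroid markers and for the sum of all values. It was not highest for the CA1, oligodendrocyte, endothelium or dividing-cell markers. The dentate gyrus markers were lowest in that library, with a sum of 49.9 against 68.6 to 86.0 in wild-type libraries. The part of this make-up in the Ppm1e values was not tested.

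Of 22 PPM1 phosphatase, CaM kinase and PAK genes, 21 were tested and 0 were called, with 9 higher and 12 lower in miR-301a-/- and a median of −0.02. Camk2a, the most abundant kinase gene of the list, had 912 ± 144 in miR-301a-/- and 813 ± 84.0 in wild type. Camk2b had 368 ± 9.53 in miR-301a-/- and 351 ± 42.5 in wild type. The related phosphatase gene Ppm1a had 83.3 ± 0.748 in miR-301a-/- and 84.5 ± 4.12 in wild type, and the kinase gene Pak1 had 108 ± 3.24 in miR-301a-/- and 110 ± 6.43 in wild type.

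Trim37 (ENSMUSG00000018548.15, chr11:87127077-87220683, plus strand) is the nearest protein-coding neighbour downstream of Ska2 and encodes a ubiquitin ligase with roles in peroxisomes and in limiting centriole formation. It had values of 74.6, 65.4 and 72.7 in miR-301a-/- libraries, against 69.5, 70.5 and 70.9 in wild-type libraries. The miR-301a-/- values lay on both sides of the wild-type values. The means were 70.9 ± 4.89 in miR-301a-/- and 70.3 ± 0.700 in wild type (SD, n = 3 each), with a log2 fold change of 0.01 (95% interval −0.14 to 0.16). Of 17 genes listed as its partners in centrioles, peroxisomes and chromatin, Trim37 included, 14 were tested and 0 were called, with 10 higher and 4 lower in miR-301a-/- and a median of 0.04. Among them the import receptor gene Pex5 had 20.4 ± 1.84 in miR-301a-/- and 20.3 ± 1.66 in wild type, and the Polycomb gene Bmi1 had 20.2 ± 0.986 in miR-301a-/- and 17.8 ± 1.56 in wild type (limma adjusted p = 0.881). Cntrob, which encodes the centriole protein centrobin, was the 1 gene of the 14 without overlap, against 11.4% of all genes tested, at 6.17 ± 0.421 in miR-301a-/- and 5.04 ± 0.487 in wild type (limma adjusted p = 0.874). It was picked out after its values were seen.

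The seed match of miR-301a-3p was present in 2 of the 10 genes. The 7-base match TTGCACT, read on the transcript strand only, was found once in the annotated 3′ UTR of Cltc (transcript Cltc-202, bases 288 to 294 of 1215) and once in that of Trim37 (Trim37-201, bases 1115 to 1121 of 2349). The other 8 genes, with 2636 bases of 3′ UTR in Ska2-201 among them, held none. Of the 12768 tested genes with an annotated 3′ UTR, 12.6% held at least 1 match. The sites are shown with the match in capitals (GENCODE M21 transcripts).
Cltc site: aagaacctgatTTGCACTctgtagtgttt
Trim37 site: ctcttaacagcTTGCACTtttcgttaata

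Neither match is followed by the A that lengthens a seed match to 8 bases. Of the 2 genes with a match, Cltc had a log2 fold change of 0.12 and Trim37 of 0.01, and neither was called.

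**Figure D3:**
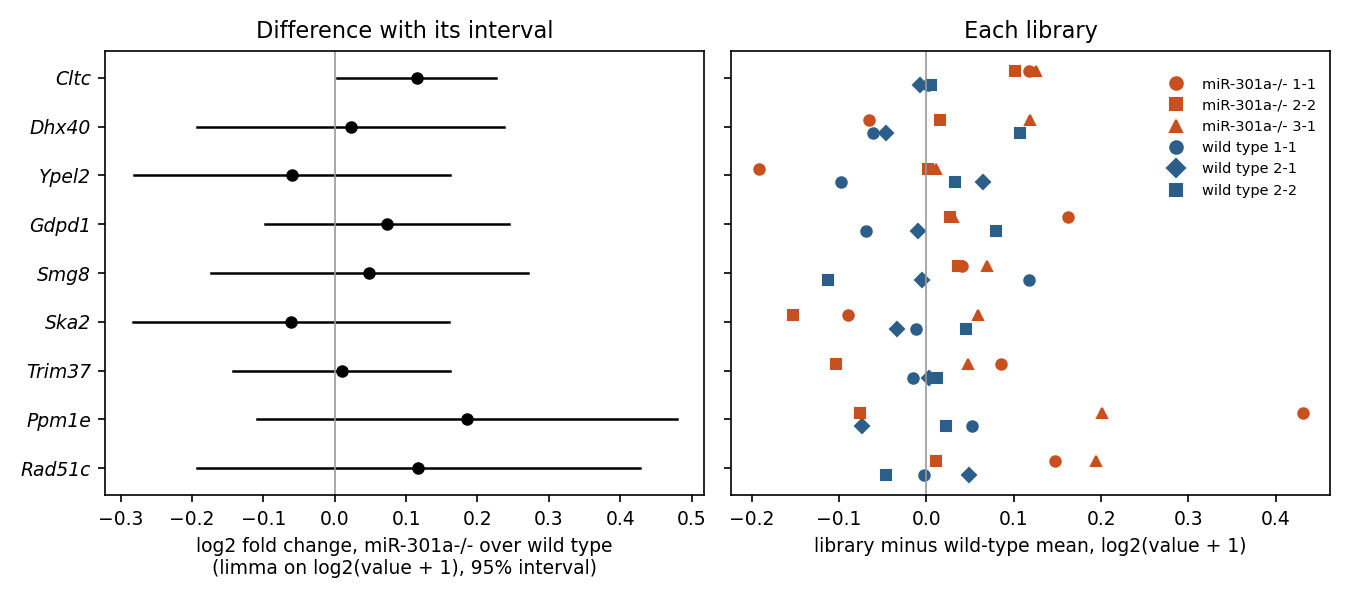
Left, limma log2 fold change of the 9 tested genes, miR-301a-/- over wild type, with its 95% interval (bars), ordered along the chromosome from Cltc to Rad51c. Right, each library's log2(value + 1) minus the wild-type mean. The interval of Cltc alone lies above 0, from 0.0036 to 0.23, and the widest library spread is that of Ppm1e.

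Gdpd1 (ENSMUSG00000061666.6, chr11:87033867-87074062, minus strand) encodes a phosphodiesterase that releases N-acylethanolamines and lysophosphatidic acid from lysophospholipids. Its level was 22.4, 20.3 and 20.4 in miR-301a-/- libraries, against 19.0, 19.8 and 21.1 in wild-type libraries. The ranges overlapped, with the highest value in miR-301a-/- and the lowest in wild type. The log2 fold change was 0.07 (95% interval −0.10 to 0.24, limma adjusted p = 0.924), and was 0.03 without miR-301a-/- 1-1 and 0.11 without wild type 2-2. Of 12 genes for glycerophosphodiesterases and N-acylethanolamine synthesis, 11 were tested and 0 were called, with 8 higher and 3 lower in miR-301a-/- and a median of 0.07. Gpcpd1, which encodes a glycerophosphocholine phosphodiesterase, had 37.6 ± 1.04 in miR-301a-/- and 27.3 ± 1.51 in wild type. It was the 1 gene of the 11 without overlap, against 11.4% of all genes tested. Its log2 fold change of 0.45 had an unadjusted p of 0.000198 in the limma fit and missed the threshold after adjustment (adjusted p = 0.116). Gde1, the most abundant gene of the list, had 121 ± 15.2 in miR-301a-/- and 122 ± 7.09 in wild type.

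Ypel2 (ENSMUSG00000018427.7, chr11:86936425-86993707, minus strand) belongs to the yippee-like family of small zinc-binding proteins. Its level was 7.61, 8.85 and 8.91 in miR-301a-/- libraries, against 8.19, 9.29 and 9.06 in wild-type libraries. The groups overlapped, and library 1-1 was the lowest of each genotype. The log2 fold change was −0.06 (95% interval −0.28 to 0.16, limma adjusted p = 0.955). The fold changes of all 5 family members were negative, with a median of −0.06, and 0 were called. Of the 14708 genes tested, 7530 had a negative fold change. Ypel3, the most abundant, had 185 ± 8.53 in miR-301a-/- and 203 ± 2.57 in wild type, a log2 fold change of −0.13 (limma adjusted p = 0.874). It was the 1 gene of the 5 without overlap, against 11.4% of all genes tested. Ypel5 had 39.0 ± 0.524 in miR-301a-/- and 39.3 ± 2.98 in wild type.

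Smg8 (ENSMUSG00000020495.13, chr11:87077732-87086774, minus strand) encodes a regulator of SMG1, the kinase that acts in nonsense-mediated decay of transcripts with early stop codons. The values of Smg8 were 5.76, 5.74 and 5.90 in miR-301a-/- libraries, against 6.13, 5.55 and 5.08 in wild-type libraries. Here the miR-301a-/- values were the closer together and lay inside the wild-type range. The log2 fold change was 0.05 (95% interval −0.17 to 0.27, limma adjusted p = 0.964). All 14 genes of the decay pathway list were tested and 0 were called, with 9 higher and 5 lower in miR-301a-/- and a median of 0.05. Eif4a3, which encodes the helicase of the exon junction complex, had 38.8 ± 2.04 in miR-301a-/- and 35.8 ± 0.698 in wild type (limma adjusted p = 0.893). Upf3a, picked out after its values were seen, had 15.2 ± 0.342 in miR-301a-/- and 17.4 ± 0.344 in wild type (log2 fold change −0.19, limma adjusted p = 0.832).

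Dhx40 (ENSMUSG00000018425.18, chr11:86768846-86807746, minus strand) encodes a DEAH-box RNA helicase. Values of Dhx40 were 7.76, 8.26 and 8.95 in miR-301a-/- libraries, against 7.78, 7.88 and 8.87 in wild-type libraries. The ranges were nearly the same in both genotypes. The log2 fold change was 0.02 (95% interval −0.19 to 0.24, limma adjusted p = 0.983). Of 16 DEAH-box helicase genes 15 were tested and 0 were called, with 12 higher and 3 lower in miR-301a-/- and a median of 0.03. Dhx9, the most abundant, had 38.0 ± 1.10 in miR-301a-/- and 33.8 ± 0.746 in wild type (log2 fold change 0.17, limma adjusted p = 0.832). It was the 1 gene of the 15 without overlap, against 11.4% of all genes tested. Dhx15, next in level, overlapped, with 35.4 ± 1.02 in miR-301a-/- and 34.6 ± 2.45 in wild type.

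Rad51c (ENSMUSG00000007646.13, chr11:87376645-87404954, minus strand) encodes a protein used in repair of DNA breaks by homologous recombination. It had values of 1.27, 1.07 and 1.35 in miR-301a-/- libraries, against 1.05, 1.13 and 0.990 in wild-type libraries. The lowest miR-301a-/- value lay among the wild-type values. The log2 fold change was 0.12 (95% interval −0.19 to 0.43, limma adjusted p = 0.933), and was 0.22 in the authors' deposited table, where no pseudocount is stated. Rad51c shares a divergent start with Tex14, a gene of germ cell division, 111 bp away, which was listed at 0.115, 0.0791 and 0.200 in miR-301a-/- libraries and at 0.0798, 0.332 and 0.518 in wild-type libraries and was too low to test.

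The genes of the SKA complex and the outer kinetochore, the structure that Ska2 belongs to, were mostly low in this tissue. Of 26 genes, Ska2 included, 14 were tested and 0 were called, with 4 higher and 10 lower in miR-301a-/- and a median log2 fold change of −0.04. Zwint, which encodes a kinetochore linker, was far above the rest at 359 ± 32.9 in miR-301a-/- and 394 ± 15.9 in wild type (limma adjusted p = 0.893). The checkpoint gene Bub3 followed with 29.0 ± 1.31 in miR-301a-/- and 29.8 ± 0.942 in wild type. The genes of both other SKA subunits were too low to be tested. Ska3 had values of 0.472, 0.641 and 0.706 in miR-301a-/- libraries, against 1.05, 1.40 and 0.939 in wild-type libraries. The 3 miR-301a-/- values were all below the wild-type values, close to the level of 1 needed for the test. Lack of overlap, in either direction, was the case for 11.4% of all genes tested, which do not include Ska3 or other genes as low. Of the 14 tested genes of the list 0 lacked overlap. Ska1 was at 0 to 0.0258 in miR-301a-/- libraries and 0 to 0.116 in wild-type libraries. Of 12 proliferation genes 5 were tested and 0 were called, with 2 higher and 3 lower and a median of −0.02. Pcna, the DNA polymerase clamp gene, had 31.4 ± 2.60 in miR-301a-/- and 30.9 ± 1.05 in wild type. The markers of dividing cells Mki67, Top2a and Cdk1 together reached 1.35 to 3.00 in miR-301a-/- libraries and 1.50 to 2.11 in wild-type libraries.

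The coefficient of variation of Ska2 over the 6 libraries was 6.51%, and no tested neighbour followed it closely from library to library. Pearson's r with Ska2 over the 6 libraries, on log2(value + 1), was 0.59 for Dhx40, 0.48 for Trim37 and 0.33 for Ypel2, and ranged from −0.30 for Cltc to 0.10 for Rad51c in the other 5 tested genes. The correlation of Prr11, which was too low for the test and rested on few reads, was not computed. Its deviations from the wild-type mean had the same sign as those of Ska2 in each library, but rest on an estimated 12.4 to 23.9 reads each. At so few reads the signs of the smallest deviations are uncertain. How many other genes match Ska2 in sign was not counted. For Prr11 the deviations were −0.11, −0.04 and 0.01 in miR-301a-/- and −0.0045, −0.06 and 0.07 in wild type. For Ska2 they were −0.09, −0.15 and 0.06 in miR-301a-/- and −0.01, −0.03 and 0.05 in wild type. The 5 genes most like Ska2 of 14531 compared were Fahd1 (0.990), Rmdn2 (0.986), 1700021F05Rik (0.982), Ppil2 (0.976) and Smim10l2a (0.976), and none is on chromosome 11. With 6 libraries, in which all genes share each library's depth and tissue make-up, 101 genes had an r above 0.9. These values are descriptions of the 6 libraries.

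The wider neighbourhood was described with the annotation alone. Within 1 Mb of Mir301 the table held 67 genes, of which 17 were at 0 in all 6 libraries, 21 were detected but too low to test, and 29 were tested, the 9 above among them. Of the 29 genes 0 were called, 20 were higher and 9 lower in miR-301a-/-, and the median log2 fold change was 0.02. The genotypes did not overlap for 2 of them, Cltc and Cuedc1, or 6.90%, against 11.4% of all genes tested. Cuedc1 had 11.7 ± 0.367 in miR-301a-/- and 13.5 ± 0.250 in wild type (SD, n = 3 each; log2 fold change −0.19, SE 0.07, limma adjusted p = 0.832). The widest fold change, −1.70, was that of the small nuclear RNA gene Gm22883, inside Ppm1e, which was listed at 37.0, 0 and 0 in miR-301a-/- libraries and at 0, 49.8 and 24.6 in wild-type libraries. A gene as short as this takes large steps from few reads.

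**Figure D4:**
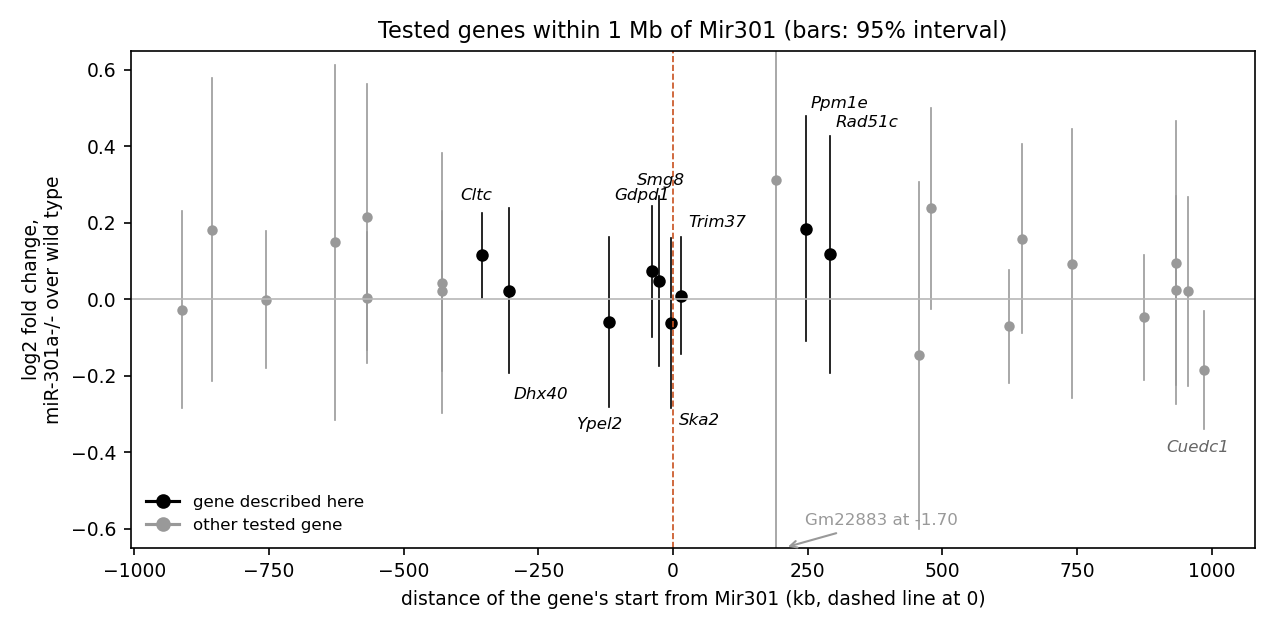
Limma log2 fold change, miR-301a-/- over wild type, of the 29 tested genes within 1 Mb of Mir301 by the distance of the gene's start (kb), with 95% intervals. Black points are the 9 tested locus genes and grey points the other 20; Gm22883, at −1.70, lies below the axis. Of the 29 intervals only those of Cltc and Cuedc1 leave out 0.

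At wider distances the share of genes without overlap was 11.9% of 42 tested genes within 2 Mb, 11.1% of 81 within 5 Mb, 13.2% of 197 within 10 Mb and 12.1% of 1132 on the whole of chromosome 11. The nearest neighbours Prr11, Trim37, Smg8 and Gdpd1, which lie 4.30, 14.0, 26.2 and 38.9 kb from Mir301, overlapped between the genotypes, and Cltc, which did not, lies 355 kb away.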

How the data were processed

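The authors deposited 1 table of 54393 genes with 1 value per library, without naming the unit. The deposited values were read as FPKM-like, because the columns have no common total and 1 read is worth less in longer genes. Per the submitters' processing notes, which assign no roles, HISAT2 2.1.0, HTSeq, bcl2fastq and mm10 are listed, while the series' design text names BWA, ANOVA, TopHat and Cufflinks. The same deposited table lists, per gene, the authors' log2 fold change with its p-value (raw and adjusted), from a test that is not named.

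The limma package (3.58.1, R 4.3.3) fitted genotype to log2(value + 1) with a trended empirical Bayes step and two-sided p-values. A gene entered when at least 3 of 6 libraries reached a value of 1, which 14708 genes did. Benjamini-Hochberg adjustment ran over all of them, with a threshold of 0.05. The steps were tested on simulated data. Single genes also had a two-sided exact permutation test of the 6 libraries. Fold changes on this scale understate changes of low genes.

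Positions, introns and 3′ UTRs came from GENCODE M21 (GRCm38), where all 54393 identifiers were found. MicroRNA and promoter sequences came from RefSeq (GRCm38.p6), which held promoters for all 10 genes. Similar transcripts were found with blastn 2.17.0. Depth per library was estimated from the smallest value times exonic length in genes of at least 2000 nt and is approximate. It limits low genes most, Prr11 above all.

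The 10 genes, the lists, the markers and the tests were chosen with earlier results of these data known. Named genes were the 10 locus genes and Mir301, genes of the 1 Mb window, up to 4 further genes of each list by mean level, and the 5 genes most like Ska2. Clta, Cltb, Dnajc6, Cntrob, Upf3a, Ska1, Ska3 and the genes that overlap or resemble locus genes were named outside this rule. A list of recombination genes is not reported here. Alternatives were other pseudocounts, filters, scalings and limma settings, a replicate block, and each library left out. The scaling to the library sum was added after the data were seen.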

Additional observations from a re-analysis of the deposited data

How the results depend on the processing

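No locus gene and no gene within 1 Mb of Mir301 was called under any alternative. The count of all called genes was 16, and became 4 without a filter, 4 with a value of 1 in all 6 libraries, and 4 to 17 with 1 library left out. Only 2 title codes occur in both genotypes, and the correlations of their deviations were −0.10 and −0.06, so the codes were not taken to pair libraries. With the title code as a replicate block 0 genes were called, and with its first number as the block 8. The log2 fold change of Trim37, 0.01, became −0.0076 and −0.0206 under these blocks, and that of Dhx40, 0.02, became −0.0481 and −0.0106. With 1 library left out, Trim37 ranged from −0.0280 to 0.0664, Dhx40 from −0.0251 to 0.0763, Ypel2 from −0.109 to 0.0063, Smg8 from −0.0078 to 0.107, Ska2 from −0.121 to −0.0156 and Gdpd1 from 0.0285 to 0.113. Ska2 was −0.138 and −0.124 under the blocks, and Smg8 was 0.0212 and Rad51c 0.0692 with the first number as the block. The cause was not tested. The difference of Prr11 in mean log2 value, −0.05, was −0.18 with a pseudocount of 0.1. Cltc kept a positive fold change throughout (0.11 to 0.12 with 1 library left out). Its unadjusted limma p was 0.0207 without a filter and 0.0481 with a pseudocount of 0.1. That p was above 0.05 with the filter on all 6 libraries (0.0592), without the trend (0.106) and under both blocks (0.358 and 0.157). The deposited columns already shared 1 median-of-ratios factor, so that scaling moved nothing. Scaling to the library sum moved the median log2 fold change of all genes from −0.0038 to 0.0136.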
